A study of Mus musculus with 7 samples.

Results

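Interferon receptors, STAT transcription factors and their inhibitor Socs3 were examined in retinal microglia (rMG), the resident macrophages of the neuroretina, before and after laser injury. The 9 genes were Ifnar1, Ifnar2, Ifngr1, Ifngr2, Jak2, Stat2, Stat3, Stat6 and Socs3, taken by their symbols from the 40743 genes of the expression table. Values came from 3 libraries of unlasered and 4 libraries of lasered mice labelled Irf8 KO (Irf8-/- Cx3cr1GFP/+, C57BL/6J background). By the labels and methods, mice of both groups shared the germline Irf8 deletion and 1 copy of Cx3cr1 replaced by GFP, and adult age is the only age the study's text gives for this comparison. Lasered mice received laser burns that induce choroidal neovascularisation (CNV), the growth of choroidal vessels into the retina, and were compared 7 days later. Each library held CD45low CD11b+ GFP+ Ly6C- Ly6G- cells, 10000 on average, sorted from a pool of 3 to 4 mice, so the spread measured here is that between pools. From lasered mice only the central 70% of the retina was sorted, so laser injury and retinal region cannot be told apart. Wild-type libraries were not analysed here.

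Of the 9 genes, 1 changed after laser injury, where 6.93% of all 17496 tested genes passed the test (limma, adjusted p under 0.05). Socs3, an inhibitor of cytokine receptor signalling, rose 2.01-fold, from 73.5 ± 16.8 to 148 ± 20.6 CPM (reads of a gene relative to the total of its library, mean ± SD, n = 3 and 4 libraries). The 4 interferon receptor chains, Jak2 and the 3 STAT genes did not pass the test, and their ratios of group means ranged from 0.920 for Ifnar2 to 1.34 for Stat2. Without lasered library 2 the adjusted p of Socs3 was 0.0562 (limma), just past the threshold.

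Type I interferons act through a receptor of the chains IFNAR1 and IFNAR2, and interferon gamma, the type II interferon, acts through IFNGR1 and IFNGR2. The receptors bind Janus kinases such as JAK2, which phosphorylate STAT proteins. STAT2 joins IRF9 in the complex that drives type I interferon target genes, STAT3 transmits signals of interleukin (IL) 6 and IL-10, and STAT6 those of IL-4 and IL-13. SOCS3 is induced by STAT3 and other signals and blocks receptors that share the chain gp130. In microglia these pathways are known for interferon responses and for changes of state after tissue damage.

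Depth was 20427558 to 36022954 reads in unlasered and 37133297 to 45919042 reads in lasered libraries, with no overlap between groups. The 9 genes had between 662 and 61191 reads per library, far above the floor of 3 reads. Irf8, which was listed only jointly with the overlapping gene Gm20388, stood at 489 to 530 CPM in unlasered and 463 to 582 CPM in lasered libraries. These values do not show which of the 2 genes the reads come from, or which part of Irf8 they cover. They therefore do not check the deletion, and the libraries are named by their label. The 8 microglia markers (Tmem119, P2ry12 and others) summed to 22264 to 26419 CPM in unlasered and 20371 to 27197 CPM in lasered libraries, and 0 of 8 passed the test across all genes (limma, adjusted p under 0.05). Without adjustment 2 of the 8 had p under 0.05, and edgeR called 0 and DESeq2 1. The 15 rod photoreceptor markers summed to 2251 to 20191 CPM in unlasered, highest in library 2, and 321 to 1020 CPM in lasered libraries, and 14 of 15 fell. The sort did not select rods, and the source of rod RNA in these libraries was not tested. In sorted bulk samples fewer cells of a type and less RNA per cell cannot be told apart. The monocyte list summed to 17.8 to 63.8 and 11.4 to 172 CPM, and the dendritic cell list to 18.7 to 41.0 and 31.3 to 135 CPM. Both lists were highest in lasered libraries 1 and 2, and limma called 0 of 3 and 0 of 5 tested genes. Of these, 1 and 2 had an unadjusted p under 0.05, edgeR called 0 and 1, and DESeq2 1 and 2. Of 9 tested markers of Mueller glia, neutrophils, T and NK cells, endothelial cells and pigment epithelium limma called 1 neutrophil gene, and Ly6g, Retnlg, Cd3e, Cldn5 and Lrat were at or under the floor in every library.

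The genes differed in level per length (CPM per kilobase of exon, all annotated exons of a gene merged, mean over 7 libraries). Ifngr1 was highest at 449 ± 49.2 (SD, n = 7), followed by Ifnar2 at 129 ± 10.1 and Ifngr2 at 69.9 ± 4.93. Ifngr1 exceeded Ifnar2, and Ifnar2 exceeded Ifngr2, in 7 of 7 libraries without overlap of their ranges. Ifngr2, Stat6 at 54.8 ± 8.72, Socs3 at 40.1 ± 15.0, Stat3 at 27.6 ± 4.43 and Ifnar1 at 26.3 ± 3.68 formed a continuous order in which each range overlapped the next. Socs3 stood at 25.4 in unlasered and 51.1 in lasered libraries, and Stat3 at 24.6 and 29.8. The order of Socs3 and Stat3 rests on their merged lengths of 2891 and 9527 bases, since Stat3 had more CPM in every library. Jak2 at 11.0 ± 3.23 and Stat2 at 10.3 ± 2.78 were lowest, below Ifnar1 in every library and not separated from each other. The 2 chains of the type I receptor thus stood apart in level, with Ifnar2 above Ifnar1 in every library.

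**Figure D1:**
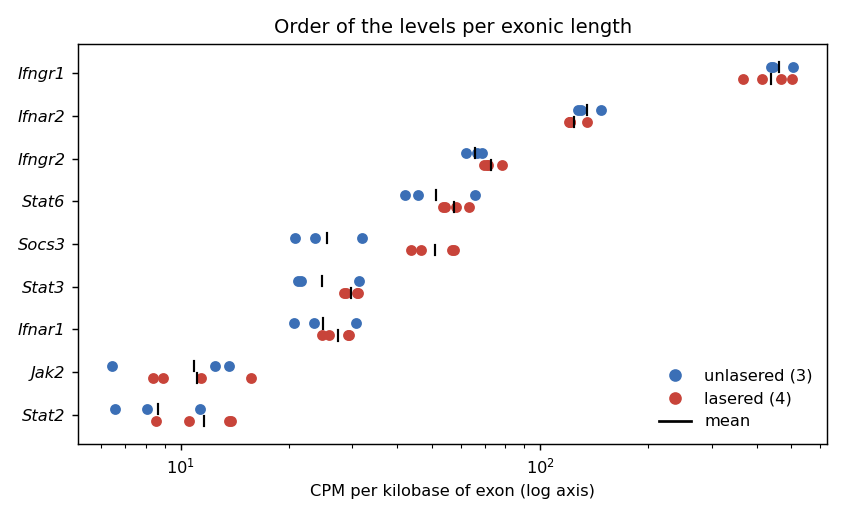
Levels of the 9 genes per length, in CPM per kilobase of exon on a log axis, with 1 point per library (3 unlasered in blue, 4 lasered in red) and a black line at each group mean. Ifngr1 and Ifnar2 stand above the others, Jak2 and Stat2 lie lowest, and Socs3 is the gene whose groups are clearly apart.

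Ifnar1 (ENSMUSG00000022967, chr16:91485238-91507441 of GRCm38, protein-coding), a signalling chain of the type I interferon receptor, had 139, 122 and 182 CPM in unlasered libraries 1 to 3 and 175, 147, 154 and 173 CPM in lasered libraries 1 to 4. The groups overlapped, since unlasered library 3 was the highest of all. The log2 fold change was 0.15 (SE 0.16), with a 95% interval of -0.20 to 0.50 and an adjusted p of 0.633 (limma, log2 of CPM + 1, adjusted over all 17496 tested genes). Ifnar2 (ENSMUSG00000022971, chr16:91372783-91405589), the other chain of this receptor, had 493, 431 and 424 CPM in unlasered and 402, 403, 449 and 399 CPM in lasered libraries. Here 3 of 4 lasered libraries lay below every unlasered one and lasered library 3 lay among them, with a log2 fold change of -0.12 (SE 0.11, interval -0.37 to 0.13, adjusted p = 0.578). Part of the Ifnar2 reads was listed jointly with Gm21970, whose exons overlap it on the same strand.

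Ifngr1 (ENSMUSG00000020009, chr10:19591949-19610229), the ligand-binding chain of the interferon gamma receptor, had 1442, 1261 and 1248 CPM in unlasered and 1047, 1179, 1333 and 1431 CPM in lasered libraries. The lasered libraries spanned almost the whole range of the unlasered ones and reached below it, and the log2 fold change was -0.09 (SE 0.13, interval -0.38 to 0.21, adjusted p = 0.752). By its mean Ifngr1 ranked 48 among all genes in unlasered and 63 in lasered libraries. Ifngr2 (ENSMUSG00000022965, chr16:91547072-91565623), the signalling chain, had 252, 260 and 235 CPM in unlasered and 263, 269, 295 and 268 CPM in lasered libraries. Every lasered library was above every unlasered one, but the gap was narrow and the difference did not pass the test (log2 fold change 0.14, SE 0.11, interval -0.10 to 0.38, adjusted p = 0.489). Of the 4 receptor genes, Ifnar1, Ifnar2 and Ifngr2 lie near each other on chromosome 16.

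**Figure D2:**
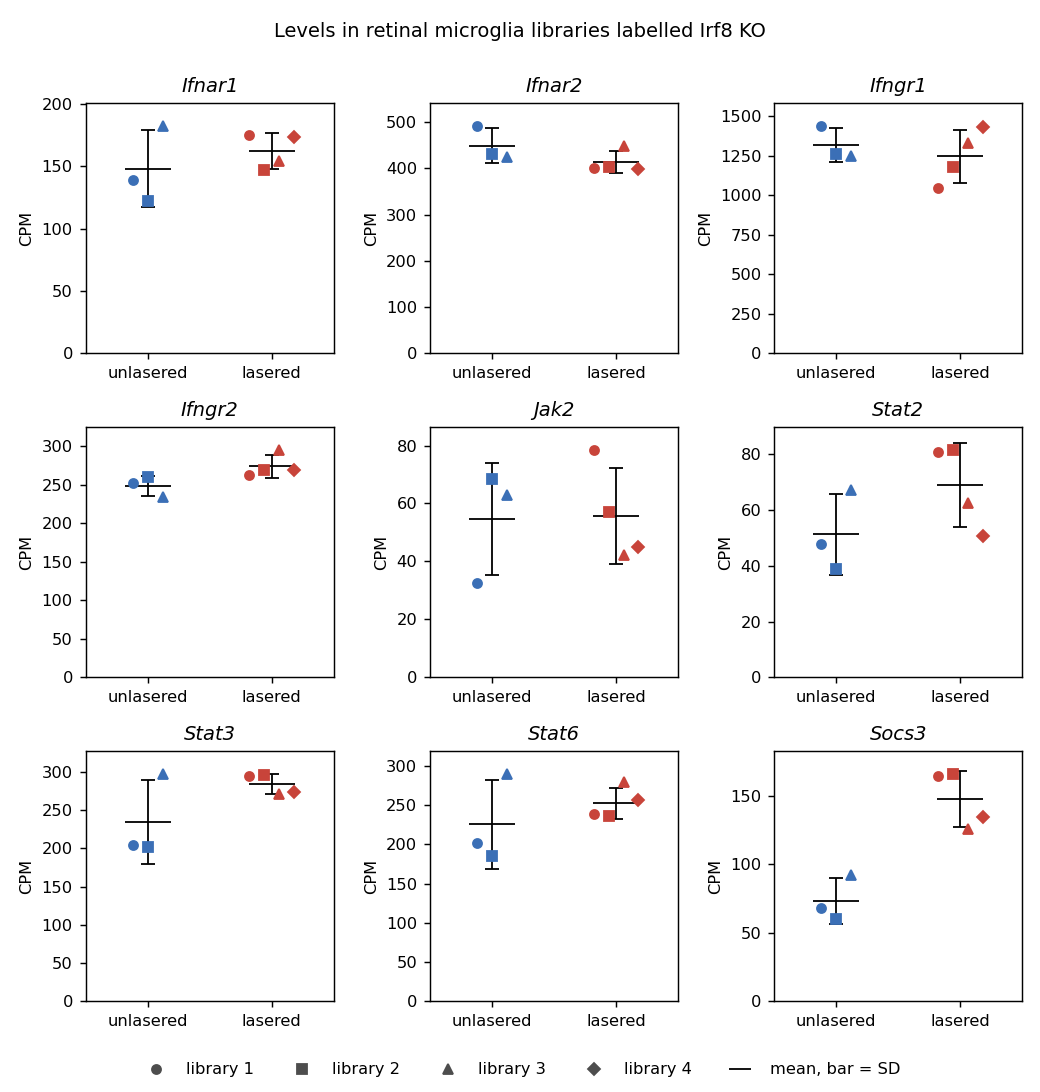
CPM of the 9 genes in each library, with axes from 0, 1 symbol per library number, and the group mean with its SD as a bar. Numbers were not used to pair libraries across groups. Socs3 (59.9 to 92.3 against 126 to 166 CPM) is the gene with a wide gap between unlasered and lasered libraries.

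Ratios of the paired chains were compared within each library. The Ifnar1 to Ifnar2 ratio of CPM was 0.332 ± 0.085 in unlasered and 0.394 ± 0.048 in lasered libraries (SD, n = 3 and 4, two-sided exact permutation test, p = 0.171, adjusted over 3 ratios p = 0.171). Unlasered library 3, at 0.430, lay among the lasered libraries, which ranged from 0.342 to 0.435. The Ifngr1 to Ifngr2 ratio was 5.30 ± 0.435 in unlasered and 4.55 ± 0.565 in lasered libraries (exact permutation test, p = 0.171, adjusted p = 0.171), and its groups overlapped too. With 3 against 4 libraries the smallest p this test can give is 0.0571.

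Jak2 (ENSMUSG00000024789, chr19:29251828-29313080), the kinase bound to IFNGR2 and to gp130, varied most within groups, with coefficients of variation of 35.6% in unlasered and 29.8% in lasered libraries. It had 32.4, 68.6 and 62.8 CPM in unlasered and 78.6, 57.1, 42.1 and 44.9 CPM in lasered libraries, and the group means of 54.6 ± 19.4 and 55.7 ± 16.6 CPM (SD) were close. The highest unlasered library was 2.12 times the lowest. The log2 fold change was 0.06 (SE 0.29, interval -0.61 to 0.72, adjusted p = 0.934), and its sign turned to -0.28 without unlasered library 1 and to -0.12 without lasered library 1, so no direction can be given.

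Among the STAT genes, Stat2 (ENSMUSG00000040033, chr10:128270559-128292849) had 47.8, 38.9 and 67.0 CPM in unlasered and 80.8, 81.7, 62.5 and 50.6 CPM in lasered libraries. Lasered libraries 1 and 2 lay above the others, while lasered libraries 3 and 4 lay within the unlasered range, and the log2 fold change of 0.43 (SE 0.23, interval -0.09 to 0.94) had an adjusted p of 0.306. Stat3 (ENSMUSG00000004040, chr11:100885098-100939540, minus strand) had 205, 201 and 298 CPM in unlasered and 294, 296, 271 and 274 CPM in lasered libraries. Unlasered library 3 stood at the lasered level and the other unlasered libraries below it, with a log2 fold change of 0.30 (SE 0.15, interval -0.05 to 0.64, adjusted p = 0.287). Without unlasered library 3 the log2 fold change of Stat3 was 0.48 and passed the test (limma, adjusted p = 0.0324). Stat6 (ENSMUSG00000002147, chr10:127642986-127660957) had 201, 185 and 290 CPM in unlasered and 239, 236, 279 and 256 CPM in lasered libraries, again with unlasered library 3 as the highest of all (log2 fold change 0.19, SE 0.16, interval -0.18 to 0.56, adjusted p = 0.555). Exons of Stat3 overlap Stat5a and exons of Stat6 overlap Nab2 on the other strand. The library kit does not mark strand, so reads from these stretches cannot be told apart.

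Socs3 (ENSMUSG00000053113, chr11:117966079-117970047 of GRCm38, minus strand, protein-coding) had 68.4, 59.9 and 92.3 CPM in unlasered libraries 1 to 3 and 164, 166, 126 and 134 CPM in lasered libraries 1 to 4. The groups did not overlap, and the lowest lasered library was 126 CPM against 92.3 CPM in the highest unlasered one. The log2 fold change was 1.01 (SE 0.18, 95% interval 0.61 to 1.41), with an adjusted p of 0.0160 in limma. By mean level Socs3 moved from rank 2661 among all genes in unlasered to rank 1137 in lasered libraries. Its rise was exceeded by that of 209 other genes that were called higher.

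Without lasered library 2 the log2 fold change of Socs3 was 0.95 and its adjusted p 0.0562, and without lasered library 1 they were 0.96 and 0.0491 (limma), while 264 and 417 of all genes passed in these fits. With lasered libraries 1 and 2, highest for the monocyte and dendritic cell markers, left out together, the log2 fold change was 0.84 and the adjusted p 0.159 (limma, 3 against 2 libraries). Without unlasered library 2, highest for the rod markers, it was 0.88 (adjusted p = 0.0425), and with all libraries thinned to the reads of the smallest one it was 1.01 (adjusted p = 0.0136). The monocyte marker Ccr2 stood at 5.63 to 14.2 CPM in unlasered and 81.5, 128, 19.7 and 7.57 CPM in lasered libraries 1 to 4. The dendritic cell marker Ccr7 stood at 0.028 to 4.16 CPM in unlasered and 74.8, 68.5, 5.34 and 3.10 CPM in lasered libraries. Plac8 of the monocyte list (log2 fold change -0.88) and Xcr1 of the dendritic cell list (-0.44) went the other way between groups and were not called. Lasered libraries 3 and 4, with 126 and 134 CPM of Socs3, were above every unlasered library. The part of these other cell types in the Socs3 result was not tested.

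Of the 6.93% of tested genes that passed, the larger part, 3.86% of all, was higher and 3.07% lower in lasered libraries. Of the 9 genes, 1 was called higher and 0 lower, in limma, edgeR and DESeq2 alike, and 0 were lower at an unadjusted p under 0.05. Groups without overlap occurred for 10.4% of all tested genes as higher and 10.7% as lower, and among the 9 genes for 2 as higher (Socs3 and Ifngr2) and 0 as lower. The median log2 fold change was 0.15 over the 9 genes and -0.01 over all tested genes. Positive values were found for 7 of the 9 genes.

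**Figure D3:**
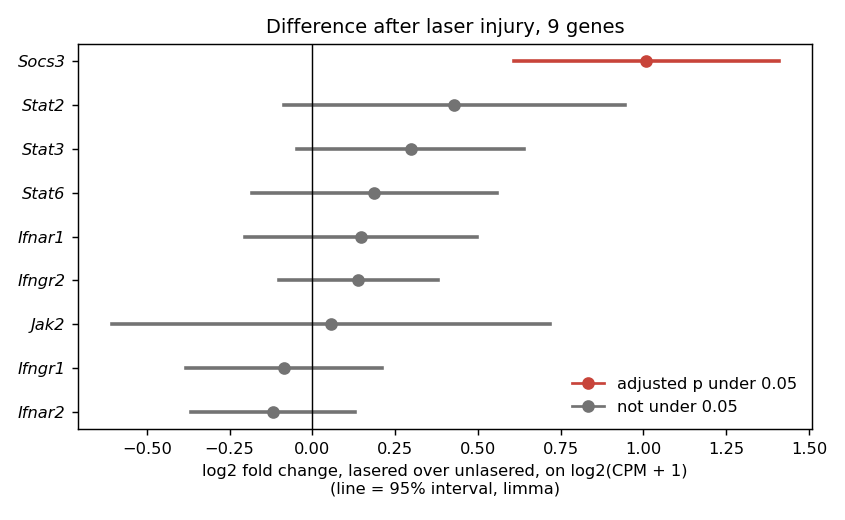
Log2 fold change of lasered over unlasered libraries for the 9 genes on the log2(CPM + 1) scale, with the 95% interval of the limma fit as a line. The interval of Socs3 (0.61 to 1.41, red) lies above 0, and the intervals of the other 8 genes (grey) include 0.

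The ratio of Socs3 to Stat3, the inhibitor against a factor that induces it, was 0.334, 0.298 and 0.310 in unlasered and 0.558, 0.562, 0.464 and 0.489 in lasered libraries. The mean ratio was 0.314 ± 0.018 in unlasered and 0.518 ± 0.049 in lasered libraries (SD, n = 3 and 4), a 1.65-fold difference with groups that did not overlap (exact permutation test, two-sided, p = 0.0571, which 3 against 4 libraries cannot go below, and adjusted p = 0.171 over 3 ratios). Unlasered library 3, the highest of its group for both genes, did not stand apart in this ratio. The log2 difference of 0.72 ranged from 0.68 to 0.77 when single libraries were left out.

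**Figure D4:**
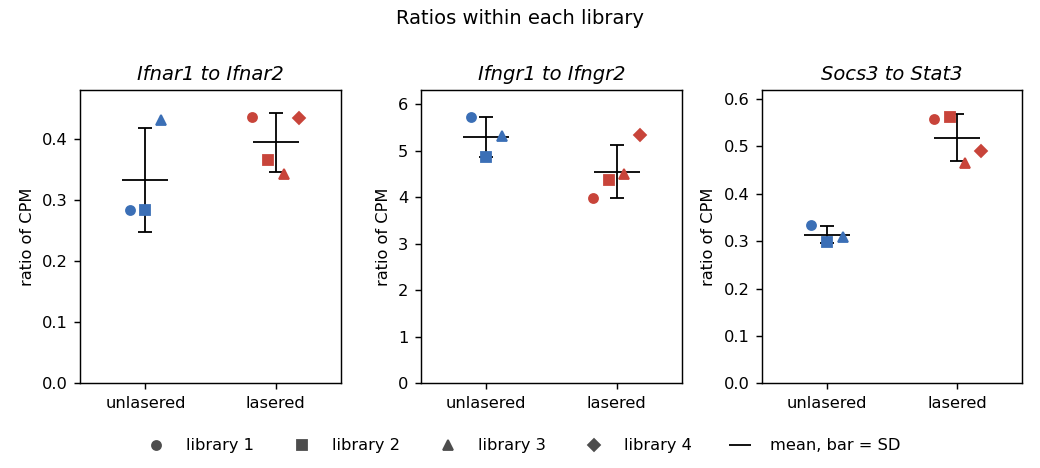
Ratios of CPM within each library for the receptor chains and for Socs3 to Stat3, with axes from 0, 1 symbol per library, and group means with SD. The Socs3 to Stat3 ratio is 0.298 to 0.334 in unlasered and 0.464 to 0.562 in lasered libraries, while the other ratios overlap between groups.

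The genes most like Socs3 in their pattern, by Pearson r of log2(CPM + 1) over the 7 libraries, were Tap1 (r = 0.993), Alpk1 (r = 0.992) and Tmem268 (r = 0.988) among 10119 genes with a mean of at least 10 CPM and reads of their own. Tap1 encodes a subunit of the peptide transporter for MHC class I loading. It had 53.3, 40.3 and 66.4 CPM in unlasered and 119, 117, 86.7 and 93.6 CPM in lasered libraries. Like Socs3, all 3 genes were higher in every lasered library than in any unlasered one, and the 7 points share that group difference.

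The stretch before the transcription start is shown for Socs3, the gene that passed the test, and for Stat2, the gene with the most motif matches. RefSeq start sites of GRCm38.p6 gave 1 window of 300 bases for each of the 9 genes, from 250 bases before the start. Searched on both strands were the interferon gamma-activated site (GAS, TTCNNNGAA), to which STAT dimers bind, its longer form bound by STAT6 (TTCNNNNGAA), the core of the interferon-stimulated response element (ISRE, GAAANNGAAA) and the ETS-IRF composite element (GGAANNGAAA). The 250 bases before the start are given in the direction of transcription, with matches in capitals, for Socs3 at chr11:117969367-117969616 (minus strand) and Stat2 at chr10:128270248-128270497 (plus strand). The annotations differ on Socs3: GENCODE M21 starts its coding transcript at 117969186 and non-coding transcripts at 117970047 and 117969451, so the stretch before the RefSeq start lies within the annotated gene span.
Socs3: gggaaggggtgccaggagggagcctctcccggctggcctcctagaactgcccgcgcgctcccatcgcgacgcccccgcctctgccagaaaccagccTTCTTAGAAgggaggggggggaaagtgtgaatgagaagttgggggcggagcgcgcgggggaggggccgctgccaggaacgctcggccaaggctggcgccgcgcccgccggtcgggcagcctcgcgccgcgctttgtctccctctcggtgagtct
Stat2: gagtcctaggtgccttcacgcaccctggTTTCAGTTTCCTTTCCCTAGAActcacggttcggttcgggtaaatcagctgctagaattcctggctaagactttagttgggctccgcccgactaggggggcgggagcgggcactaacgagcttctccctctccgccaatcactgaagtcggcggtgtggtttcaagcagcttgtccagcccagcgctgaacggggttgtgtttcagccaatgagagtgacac

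The Socs3 window held 1 GAS match, TTCTTAGAA, at positions -154 to -146, counted with the RefSeq start base as 0. This window ends before the GENCODE start of the coding transcript, and the bases directly before that start were not searched. GAS matches were also present in the windows of Ifnar2 (TTCCTGGAA, -214 to -206) and Ifnar1 (TTCACGGAA, -5 to 3), so 3 of 9 windows held one, against 8.29% of all 32817 RefSeq windows of this length. The longer STAT6 form occurred in the windows of Ifngr2 (TTCCCGGGAA, -91 to -82) and Stat2 (TTCCCTAGAA, -210 to -201), against 6.94% of all windows. The Stat2 window also held the ISRE core (-222 to -213) and the ETS-IRF composite (-216 to -207), both on the minus strand, and these overlapped each other, as the composite did the STAT6 form. In all windows these elements occurred in 3.43% and 2.72%. The windows of Ifngr1, Jak2, Stat3 and Stat6 held none of the 4 patterns. Motif matches are descriptions of the sequence, and binding was not measured.

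Other genes of the pathway were described from lists. Of 113 listed genes in the table, 90 were tested. Of these, 13 were called higher and 1 lower, where 3.86% of all tested genes were called higher and 3.07% lower. The median log2 fold change was 0.16, against -0.01 over all tested genes. Leaving out single libraries moved the count of 14 calls to 8 without unlasered library 1, 5 without unlasered library 2, and 4, 3 and 6 without lasered libraries 1, 2 and 3. It was 1 with lasered libraries 1 and 2 left out together. Calls of 2 genes, Irf7 and Ccl22, held in each of the 7 fits that left out 1 library. All 14 genes had the same direction in all of these fits, which their groups without overlap fixed in advance. Part of the reads of Csf2rb, Jak3, Irf9 and Ptprc was listed jointly with overlapping genes, and exons of Tap1, Irf7, Il4ra and Jak1 overlap genes on the other strand.

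Ligands were scarce. Of 21 interferon genes, 8 were in the table and 0 reached the level for testing. Ifnb1, encoding interferon beta, had 0 reads in all 7 libraries, which allows up to 0.0653 to 0.147 CPM per library (3 reads, counting error only), and Ifng had 0 to 2 reads. Of 9 listed cytokines that signal through STAT3 or STAT6, 3 were tested, and 0 passed in limma (0 at an unadjusted p under 0.05), edgeR or DESeq2. Osm, encoding oncostatin M, was the highest at 13.0 to 20.2 CPM (log2 fold change -0.37, adjusted p = 0.256 in limma). Il6 had 2 to 4 reads in unlasered and 26, 15, 1 and 2 reads in lasered libraries 1 to 4.

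Among the other receptor chains, 2 of 13 rose, where 3.86% of all tested genes did. Csf2rb, the signalling chain of the receptors for GM-CSF, IL-3 and IL-5, had 50.8, 40.2 and 89.9 CPM in unlasered and 178, 165, 154 and 106 CPM in lasered libraries (log2 fold change 1.37, SE 0.27, limma adjusted p = 0.0248). Csf2ra, the GM-CSF-binding chain, rose from 48.6 to 59.9 CPM to 69.7 to 116 CPM (log2 fold change 0.82, SE 0.19, adjusted p = 0.0355). The highest of these genes was Il4ra, the receptor chain for IL-4 and IL-13, at 391 to 590 CPM in unlasered and 564 to 678 CPM in lasered libraries (adjusted p = 0.139). The GM-CSF receptor signals through JAK2, whose own gene gave no direction.

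Of the 3 other Janus kinases, Jak3, which binds the common gamma chain, rose from 34.3 to 57.6 CPM to 75.9 to 100.2 CPM (log2 fold change 1.06, SE 0.19, limma adjusted p = 0.0178). Jak1, the highest, had 290 to 437 CPM in unlasered and 291 to 338 CPM in lasered libraries (adjusted p = 0.796). The call of Jak3 was lost without unlasered library 2 and without lasered libraries 1 or 3.

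Irf9, encoding the DNA-binding partner of STAT2, did not pass the test, with 112 to 124 CPM in unlasered and 112 to 148 CPM in lasered libraries (log2 fold change 0.16, limma adjusted p = 0.528).

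Of 16 other inhibitors, 1 rose, where 3.86% of all tested genes did. Socs2, which restrains growth hormone and other cytokine signals, had 0.636, 1.14 and 1.19 CPM in unlasered and 5.82, 9.27, 6.27 and 2.53 CPM in lasered libraries (log2 fold change 1.72, SE 0.34, limma adjusted p = 0.0224). At this low level the pseudocount of 1 sets the size, and the log2 fold change of Socs2 was 2.39 with a pseudocount of 0.1, 2.57 in edgeR and 2.58 in DESeq2. Socs1, which restrains interferon receptors, stood at 1.28 to 1.57 and 1.42 to 2.78 CPM and did not pass (adjusted p = 0.606). Ptprc, the phosphatase CD45, was the highest of the list at 363 to 641 CPM in unlasered and 491 to 615 CPM in lasered libraries. Socs3 was thus 1 of 2 called genes among the SOCS genes Socs1 to Socs7.

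Of 16 type I interferon target genes, 6 rose and 0 fell, against 3.86% and 3.07% of all tested genes. All 16 had positive log2 fold changes, against 48.4% of all tested genes. Groups without overlap, as higher, were found for 9, against 10.4% of all tested genes. Irf7, a transcription factor of the interferon response, rose from 70.9, 85.5 and 74.1 CPM to 337, 316, 239 and 206 CPM (log2 fold change 1.80, SE 0.18, limma adjusted p = 0.00265). The antiviral genes Rsad2 (log2 fold change 1.17, adjusted p = 0.0279) and Oas1a (1.12, adjusted p = 0.0251) and the proapoptotic Xaf1 (0.93, adjusted p = 0.0196) rose too, and Ifit3, with the highest mean, rose from 170 to 236 CPM to 262 to 418 CPM (0.83, adjusted p = 0.0336). Ifit1 was the remaining gene called (0.86, adjusted p = 0.0211). The list summed to 1323, 1225 and 1144 CPM in unlasered and 2573, 2458, 2187 and 1555 CPM in lasered libraries, highest in lasered libraries 1 and 2, which also held the most monocyte and dendritic cell marker reads. The part of those cells in the result was not tested. The list had 2 calls without unlasered library 2 and without lasered library 1 or 3. It had 1 call without lasered library 2 and 1 with lasered libraries 1 and 2 left out together. Irf7 was called in each of these fits, and without lasered library 1 the other call was a gene outside the 6. There were 9 calls without lasered library 4, 7 in edgeR and 11 in DESeq2. Csf2rb, Ifit3 and Oas1a have close copies next to them in the genome, and how the counting divided reads between copies is not given in the sources used here.

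Of 12 type II interferon target genes, 1 rose, where 3.86% of all tested genes did. This was Tap1 (log2 fold change 0.97, SE 0.19, limma adjusted p = 0.0245). Tap1 lost its call without unlasered library 1 or 2 and without lasered library 1 or 2. Irf1, a transcription factor of this response, had 172, 172 and 151 CPM in unlasered and 119, 118, 132 and 127 CPM in lasered libraries, without overlap and with a log2 fold change of -0.41 that did not pass (limma adjusted p = 0.0661). DESeq2 called 2 of the 12 genes higher and 1, Irf1, lower. Irgm1, encoding an interferon-inducible GTPase, was the highest of this list, at 164 to 203 CPM in unlasered and 197 to 276 CPM in lasered libraries (adjusted p = 0.102). Of 12 STAT3 target genes besides Socs3, limma called 0 (1 at an unadjusted p under 0.05, as lower), edgeR and DESeq2 called 1 as lower, and the median log2 fold change was 0.05. Mcl1, which protects from apoptosis, was the highest at 384 to 448 CPM in unlasered and 436 to 510 CPM in lasered libraries (adjusted p = 0.418, limma).

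Of 10 STAT6 target genes, 2 rose and 1 fell, against 3.86% and 3.07% of all tested genes. The chemokine gene Ccl22 had 0.196, 0.029 and 0.056 CPM in unlasered and 18.1, 36.4, 8.89 and 3.53 CPM in lasered libraries (log2 fold change 3.62 on the log2(CPM + 1) scale, limma adjusted p = 0.0132). With 1 to 4 reads in unlasered libraries its size depended on the scale, and the log2 fold change of Ccl22 was 6.07 with a pseudocount of 0.1 and 7.64 in edgeR. Egr2, a transcription factor, rose with a log2 fold change of 1.23 (adjusted p = 0.0437). The call of Egr2 was kept in 1 of 7 fits that left out 1 library. It was lost with a pseudocount of 0.1 and in edgeR but held in DESeq2. The chemokine gene Ccl24 fell from 44.0 to 67.8 CPM to 18.0 to 29.4 CPM (log2 fold change -1.20, adjusted p = 0.0164). Clec7a, encoding the receptor dectin-1, had the highest mean, at 594 to 700 CPM in unlasered and 593 to 826 CPM in lasered libraries (adjusted p = 0.553). Ccl22, which dendritic cells also express, was highest in lasered libraries 1 and 2, as was Ccr7.

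**Figure D5:**
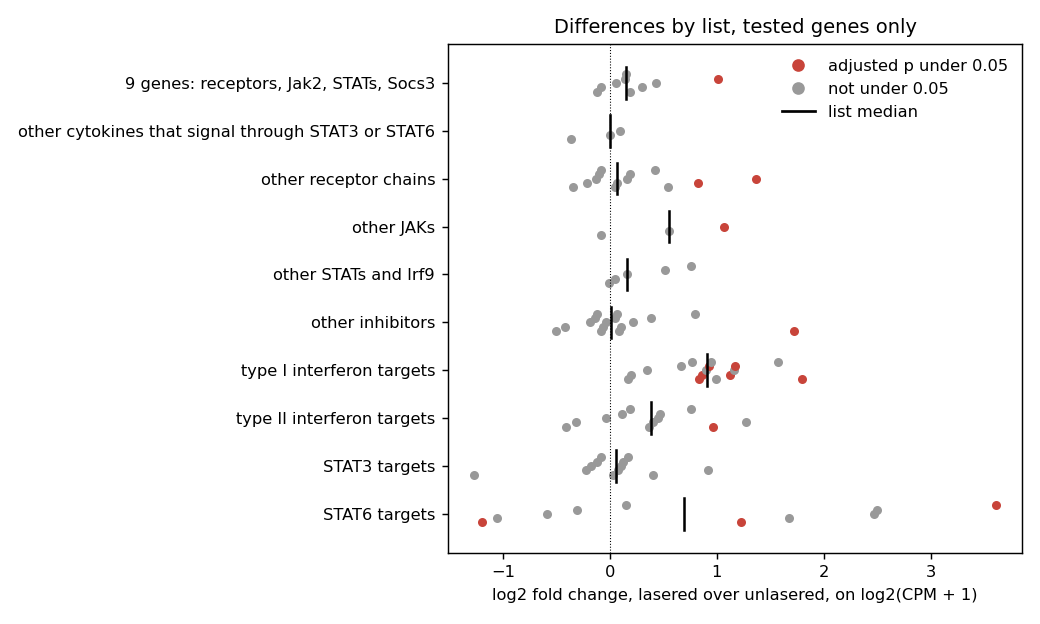
Log2 fold change of lasered over unlasered libraries for every tested gene of the 9 genes and of 9 lists, with called genes in red, other genes in grey and a black line at the median of each list. The type I interferon targets lie to the right of 0 (16 of 16 genes), while the 9 genes centre on 0.15 with Socs3 apart at 1.01.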

How the data were processed

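The authors removed adapters and duplicate reads with cutadapt and FastUniq, mapped with Bowtie2 and counted with HTSeq. GRCm38 is the build in the submitters' processing notes. The deposited values are headed TPM but are CPM. Whole reads were recovered from them for 100% of values (tolerance 0.02 reads), and 0 columns of samples remained unused. The comparison used limma 3.58.1 (R 4.3.3, trend and robust empirical Bayes) on log2(CPM + 1) for the 17496 genes that reached 1 CPM in 3 or more libraries, two-sided, with Benjamini-Hochberg adjustment and a threshold of 0.05. edgeR 4.0.16 and DESeq2 1.42.0 on recovered reads, a pseudocount of 0.1, no filter, median-of-ratios scaling, thinning, the replicate block, the study's thresholds and leaving out libraries were alternatives. Leaving out lasered libraries 1 and 2 together was chosen after seeing the data. Members and lists were chosen with earlier results of these data known. Named were all members and, per list, up to 4 called genes by size of change and the gene with the highest mean. Il6, Socs1, Ifit1, Irf1, Ccr2, Ccr7, Plac8 and Xcr1 were added after their values were seen. Values of 1 listed gene are not reported here. Libraries of a group differed beyond sampling noise. The script for the test was tested on simulated data. Gene positions came from GENCODE M21 (GRCm38).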

Additional observations from a re-analysis of the deposited data

Results flagged for a closer look

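Ifnar2 in lasered library 3, at 449 CPM, stood far from the other lasered libraries, which had 399 to 403 CPM. The gap to the nearest library was 0.932 of the range of the group. Of 12 groups of 4 libraries examined in this way, 1 stood out, and chance marks about 1 in 20. Lasered library 3 was also the lowest of its group for Socs3, at 126 CPM.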

How the results depend on the processing

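Of the 9 genes, the call of Socs3 (limma, adjusted p = 0.0160) held with a pseudocount of 0.1, without a filter, with median-of-ratios scaling (log2 fold change 1.09), edgeR (adjusted p = 0.0141), DESeq2 (adjusted p = 5.91e-06) and thinned reads. It was lost without lasered library 2 (adjusted p = 0.0562) and with lasered libraries 1 and 2 left out together (adjusted p = 0.159), and its adjusted p ranged from 5.91e-06 to 0.159 over 15 alternatives. Leaving out single libraries gave 0 to 2 called members, 3 to 17 other pathway genes and 264 to 1248 of all genes, against 1, 14 and 1213. The log2 fold change of Jak2 ranged from -0.28 to 0.25 in these fits. With lasered libraries 1 and 2 left out together the counts were 0, 1 and 24, and Ccl22 was not tested. Without a filter 3 pathway genes and 385 genes were called, with DESeq2 25 and 2318, and with the study's thresholds 0 members, 1 pathway gene and 54 genes. The log2 fold change of Jak2 reversed to -0.28 without unlasered library 1, -0.12 without lasered library 1 and -0.25 without lasered libraries 1 and 2, and that of Ifngr1 to 0.071 without lasered libraries 1 and 2. The cause of these changes was not tested, other than that these fits hold fewer samples. Same-numbered libraries did not deviate together (r = -0.18, -0.13 and -0.02), so the numbers do not pair them. With the replicate number as a block, 0 members, 0 pathway genes and 3 genes were called (Socs3 log2 fold change 1.05, adjusted p = 0.116). The Socs3 to Stat3 ratio kept its direction in 8 of 8 alternatives, which its groups without overlap fixed in advance. Median-of-ratios scaling shifted the median of all genes by 0.07. Reads of overlapping genes could not be told apart, and thinning to the smallest library left the count of called members at 1.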
